A study of Mus musculus with 6 samples.

Results

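Lipoprotein assembly and fatty acid uptake were followed through 10 genes, Mttp, Apob, Apoa1, Apoa4, Apoc3, Apoe, Pltp, Fabp1, Fabp2 and Cd36, out of 19533 genes measured. They were taken by name from the platform's annotation, and each had 1 probe set naming only that gene. The source was live, EpCAM+ epithelium from the large intestine; all mice were C57BL/6 and germ-free, that is, without any microbiota. The groups were HDAC3ΔIEC, mice that lack Hdac3 in intestinal epithelial cells (3 biological replicates), and HDAC3FF, the control mice of that line (3 biological replicates), with 1 Affymetrix array per replicate. The deletion is intrinsic to the epithelium, per the design text. The labels name neither the Cre driver nor the age of the mice. HDAC3 is a histone deacetylase that works within nuclear receptor corepressor complexes.

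Absorptive cells of the intestine package dietary fat into chylomicrons. MTTP, the microsomal triglyceride transfer protein, loads lipid onto apolipoprotein B in the endoplasmic reticulum, and the smaller apolipoproteins A-I, A-IV and C-III are added to the particle or circulate on high-density lipoprotein. Fatty acids that enter at the brush border are bound in the cytosol by the fatty acid binding proteins FABP1 and FABP2, and CD36 is a membrane receptor for long-chain fatty acids. This machinery is best known from the small intestine and the liver.

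Values are deposited log2 signals, so a difference of 1 is a doubling of signal, and signals of different probe sets are not compared as amounts. The median signal lay between 5.30 and 5.35 and the highest between 13.40 and 13.55 on the 6 arrays, whose small number limits the precision of every value. The deleted gene Hdac3 had signals of 6.58, 6.22 and 6.00 on the HDAC3ΔIEC arrays, against 6.96, 7.36 and 7.04 on the HDAC3FF arrays. The groups did not overlap (log2 fold change -0.86 ± 0.17, SE; limma adjusted p = 0.0937), and the probe set may include probes outside the deleted part. A gene was called at a limma adjusted p under 0.05 over all genes. Of the epithelial markers, Krt8, a simple-epithelium keratin, averaged 13.08 ± 0.06 in HDAC3ΔIEC and 12.82 ± 0.06 in HDAC3FF, and Krt20, a keratin of mature intestinal cells, averaged 12.26 ± 0.04 in HDAC3ΔIEC and 11.85 ± 0.34 in HDAC3FF (SD, n = 3 each). None of the 8 was called, and 6 had positive and 2 negative log2 fold changes (median 0.22), with -0.06 ± 0.10 (SE) for Epcam. In 3 of the 8 every HDAC3ΔIEC array was higher, against 8.45% of all genes. Car1, a colonocyte carbonic anhydrase, averaged 13.02 ± 0.05 in HDAC3ΔIEC and 12.85 ± 0.07 in HDAC3FF, and the goblet cell mucin Muc2 averaged 12.77 ± 0.09 in HDAC3ΔIEC and 12.55 ± 0.21 in HDAC3FF (SD, n = 3 each). Of the 11 measured large intestine markers none was called, and 5 had positive and 6 negative log2 fold changes (median -0.09). In 3 every HDAC3ΔIEC array was higher and in 3 every one was lower, against 8.45% and 7.70% of all genes. Among the higher were Aqp8 (0.69 ± 0.22, SE) and Slc26a2 (0.41 ± 0.12). Among the lower were the chloride exchanger gene Slc26a3 (-0.44 ± 0.08, SE) and Hoxd10, a gene of posterior position (-0.81 ± 0.21).

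The sequences before the start sites of 6 of these genes are printed. They show the regulatory stretch next to the genes with the largest differences (Mttp, Apoa4, Fabp1 and Apoa1), to Apob, which read lower on every HDAC3ΔIEC array, and to Fabp2, whose groups lay close together. RefSeq start sites of build GRCm38.p6 gave windows for 9 of the 10 genes, and each sequence holds the 250 bases before a start, 5′ to 3′ on the gene's strand. Capitals mark matches, on either strand, to letters of nuclear receptor sites and of the core promoter: the HNF4-type core CAAAGNNCA, the direct repeat DR1 (the half-site AGGNCA repeated with any 1 base between) and the TATA box TATAAA. DR1 and the HNF4-type core can overlap. They stand at chr3:138143419-138143668 on the minus strand for Mttp, chr9:46240594-46240843 on the plus strand for Apoa4, chr9:46228380-46228629 on the plus strand for Apoa1, chr12:7977427-7977676 on the plus strand for Apob, chr6:71199629-71199878 on the plus strand for Fabp1 and chr3:122894822-122895071 on the plus strand for Fabp2.
Mttp: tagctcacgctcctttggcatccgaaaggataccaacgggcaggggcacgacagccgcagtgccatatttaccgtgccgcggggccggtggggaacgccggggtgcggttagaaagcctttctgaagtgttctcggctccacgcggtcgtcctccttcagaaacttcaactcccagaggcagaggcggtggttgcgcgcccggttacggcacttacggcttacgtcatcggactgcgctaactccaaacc
Apoa4: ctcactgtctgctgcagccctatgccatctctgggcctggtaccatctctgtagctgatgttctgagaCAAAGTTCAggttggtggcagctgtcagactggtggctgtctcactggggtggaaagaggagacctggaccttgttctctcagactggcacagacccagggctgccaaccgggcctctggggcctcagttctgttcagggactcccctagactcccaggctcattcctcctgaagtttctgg
Apoa1: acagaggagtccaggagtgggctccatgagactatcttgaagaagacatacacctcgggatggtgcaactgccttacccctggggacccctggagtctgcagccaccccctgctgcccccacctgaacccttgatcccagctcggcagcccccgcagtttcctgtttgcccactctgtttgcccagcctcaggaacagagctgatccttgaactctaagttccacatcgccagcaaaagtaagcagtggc
Apob: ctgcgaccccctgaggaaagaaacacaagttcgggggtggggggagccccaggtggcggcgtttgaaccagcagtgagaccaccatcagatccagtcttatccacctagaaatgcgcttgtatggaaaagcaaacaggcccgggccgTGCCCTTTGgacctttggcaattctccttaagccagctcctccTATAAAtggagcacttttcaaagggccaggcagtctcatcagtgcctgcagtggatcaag
Fabp1: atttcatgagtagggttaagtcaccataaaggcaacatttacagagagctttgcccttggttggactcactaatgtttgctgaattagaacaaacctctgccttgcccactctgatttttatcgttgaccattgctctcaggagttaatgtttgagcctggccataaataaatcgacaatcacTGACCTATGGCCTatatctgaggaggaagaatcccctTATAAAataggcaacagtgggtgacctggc
Fabp2: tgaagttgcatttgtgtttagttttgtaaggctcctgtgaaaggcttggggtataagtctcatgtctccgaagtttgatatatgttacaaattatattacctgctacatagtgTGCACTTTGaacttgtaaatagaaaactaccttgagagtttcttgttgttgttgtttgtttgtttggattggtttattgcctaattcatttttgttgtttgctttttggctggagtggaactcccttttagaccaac
The HNF4-type core was present before Apoa4, Apob and Fabp2, at 182 to 174, 103 to 95 and 137 to 129 bases before the start, and it occurs in 5.49% of all 32851 windows. A DR1 stood 67 to 55 bases before Fabp1 (0.338% of all windows), with a TATA box at 30 to 25 bases (12.4% of all windows). A TATA box was also found 60 to 55 bases before Apob and in 1 window of Apoe. The 9 genes have 11 windows in all, and those of Mttp, Apoa1, Pltp and Cd36 held none of the letters searched. The letters were chosen after a first search, so the shares of all windows are a description and no test of these matches.

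None of the 10 genes passed limma's test over all genes, against 0.701% of all genes called in either direction. Mttp, Apoa4, Fabp1 and Apoa1 nevertheless differed by 1.20 to 1.58 on the log2 scale, all higher in HDAC3ΔIEC, while 0.512% of all genes had a difference of at least 1 in that direction. Apob read lower in HDAC3ΔIEC, and Apoc3, Apoe, Pltp, Fabp2 and Cd36 had 95% intervals that include 0. Unadjusted limma p-values were under 0.05 for 4 genes in the higher direction (5.38% of all genes) and for 1 in the lower (5.84%). In 3 of the 10 genes the groups did not overlap (16.2% of all genes), 2 with HDAC3ΔIEC above (8.45% of all genes) and 1 with HDAC3ΔIEC below (7.70%). The median log2 fold change of the 10 was 0.27, against 0.01 over all genes. The 10 genes were chosen with earlier results of these data known.

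**Figure D1:**
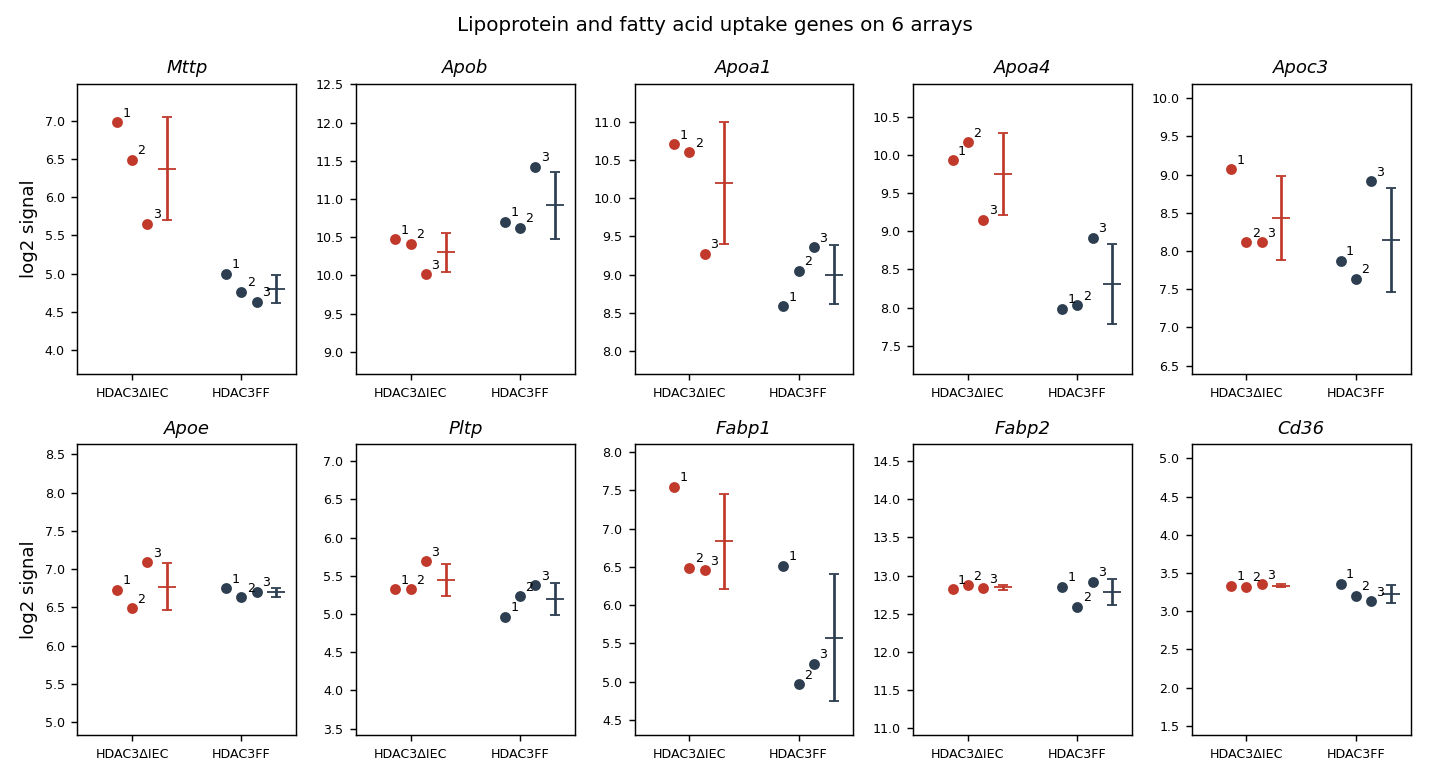
Log2 signal (vertical axis, each panel spanning the same number of log2 units) of the 10 genes on 3 HDAC3ΔIEC arrays (red, left) and 3 HDAC3FF arrays (dark, right). Points carry the replicate number and bars give the mean ± SD; Mttp and Apoa4 lie above all control arrays, Apob lies under them, and the other panels overlap.

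Mttp, which encodes the lipid transfer protein that starts particle assembly, read 6.98, 6.49 and 5.65 on the HDAC3ΔIEC arrays and 4.999, 4.76 and 4.63 on the HDAC3FF arrays. Every HDAC3ΔIEC array was above every control array, with HDAC3ΔIEC replicate 3 nearest to the controls. The means of 6.37 ± 0.67 in HDAC3ΔIEC and 4.80 ± 0.19 in HDAC3FF (SD, n = 3 each) correspond to 2.98-fold. Its log2 fold change of 1.58 ± 0.31 (SE) had a limma adjusted p = 0.0877. Mttp was called without HDAC3ΔIEC replicate 3, at 1.94 and a limma adjusted p = 0.0354, and in 3 of the alternatives that keep all arrays. Among these 3 was the filter to genes above the median (limma adjusted p = 0.0431). Mttp passed that filter through its HDAC3ΔIEC signals, since its HDAC3FF mean of 4.80 lay below the lowest array median of 5.30. Over all 15 alternatives its limma adjusted p ran from 0.0327 to 0.312.

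Apob encodes the structural protein on which chylomicrons are built. Its signals were 10.48, 10.41 and 10.01 on the HDAC3ΔIEC arrays, against 10.70, 10.63 and 11.42 on the HDAC3FF arrays. The groups did not overlap, and HDAC3FF replicate 3 stood above the other control arrays. The log2 fold change was -0.62 ± 0.23 (SE, limma adjusted p = 0.362), a signal 1.53-fold lower in HDAC3ΔIEC, and it was -0.36 without HDAC3FF replicate 3. Taken as a difference within each array, Mttp minus Apob was -3.50, -3.92 and -4.36 in HDAC3ΔIEC and -5.70, -5.87 and -6.79 in HDAC3FF. These differences were apart by 2.19 between the groups. With Mttp higher and Apob lower on every HDAC3ΔIEC array, they could not overlap. Their exact two-sided permutation p = 0.1, the smallest that 3 against 3 arrays allow, was fixed by this and adds nothing to the values of the 2 genes. A scaling of whole arrays cancels in them.

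Apoa1 and Apoa4 encode apolipoproteins A-I and A-IV, the first the main protein of high-density lipoprotein and the other a chylomicron protein induced by fat absorption in rodents. Apoa4 read 9.93, 10.17 and 9.15 on the HDAC3ΔIEC arrays and 7.99, 8.03 and 8.92 on the HDAC3FF arrays. All HDAC3ΔIEC values were higher, although replicate 3 of the 2 groups came within 0.24 of each other. The log2 fold change of Apoa4 was 1.44 ± 0.33 (SE, limma adjusted p = 0.125), or 2.71-fold. It was called without HDAC3FF replicate 3 (1.74, limma adjusted p = 0.0311) and with array weights (1.73, limma adjusted p = 0.0265).

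Apoa1 had signals of 10.71, 10.60 and 9.28 in HDAC3ΔIEC, against 8.59, 9.05 and 9.36 in HDAC3FF. HDAC3ΔIEC replicate 3 lay within the range of the controls, and HDAC3ΔIEC replicates 1 and 2 stood above them. The log2 fold change was 1.20 ± 0.39 (SE, limma adjusted p = 0.282), or 2.29-fold. With 1 array left out it ran from 0.94, without HDAC3ΔIEC replicate 1, to 1.66, without HDAC3ΔIEC replicate 3. Apoc3, which lies between Apoa1 and Apoa4 on chromosome 9 and encodes apolipoprotein C-III, an inhibitor of triglyceride clearance, read 9.07, 8.12 and 8.12 in HDAC3ΔIEC and 7.87, 7.64 and 8.91 in HDAC3FF. Its groups overlapped, at a log2 fold change of 0.29 with a 95% interval from -0.60 to 1.19 (limma adjusted p = 0.876). Without HDAC3ΔIEC replicate 1 it was -0.025, without a call.

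Within each array, Apoa4 minus Apoc3 was 0.86, 2.05 and 1.03 in HDAC3ΔIEC and 0.11, 0.39 and 0.00 in HDAC3FF. All HDAC3ΔIEC values were higher, by 1.14 on average (exact two-sided permutation p = 0.1, the smallest possible here). Apoa1 minus Apoc3 averaged 1.76 ± 0.67 in HDAC3ΔIEC and 0.86 ± 0.50 in HDAC3FF (SD, n = 3 each), and these overlapped (exact permutation p = 0.2). Over the 4 within-array differences examined, the smallest Benjamini-Hochberg adjusted exact p was 0.2.

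The genes beside these showed smaller differences. On chromosome 9, Apoa5, which lies next to Apoa4 and encodes a regulator of triglyceride clearance, had a log2 fold change of 0.10 ± 0.09 (SE), and Sik3, a kinase gene on the other side of Apoa1, one of -0.07 ± 0.15. None of the 14 measured neighbours around Apoa1 and Apoe was called or had an unadjusted limma p under 0.05, and their log2 fold changes ran from -0.30 to 0.39. The smallest p-values among them were those of Tomm40, a subunit of the mitochondrial import pore beside Apoe (0.35 ± 0.19, SE, limma adjusted p = 0.579), and Tagln, an actin-binding protein gene of smooth muscle on chromosome 9 (0.27 ± 0.15, SE, limma adjusted p = 0.585).

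**Figure D2:**
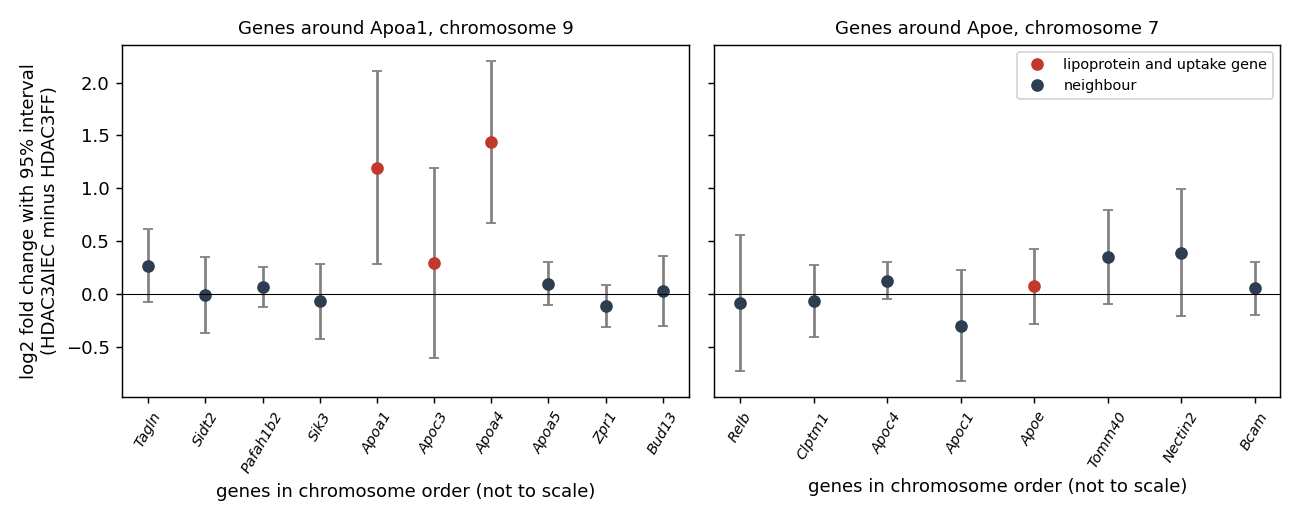
Log2 fold change of HDAC3ΔIEC minus HDAC3FF with its 95% interval (vertical axis) for genes in chromosome order around Apoa1 (left) and Apoe (right), with red points for the genes of lipoprotein assembly and dark points for neighbours. Apoa1 and Apoa4 stand at 1.20 and 1.44, Apoc3 between them at 0.29, and the neighbours between -0.30 and 0.39.

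Apoe and Pltp encode proteins of lipoprotein exchange, a ligand of lipoprotein receptors and the phospholipid transfer protein. Apoe read 6.73, 6.48 and 7.09 on the HDAC3ΔIEC arrays and 6.75, 6.63 and 6.70 on the HDAC3FF arrays, where the controls lay inside the HDAC3ΔIEC range. The log2 fold change of 0.07 had a 95% interval from -0.28 to 0.43 (limma adjusted p = 0.931), and its sign turned without HDAC3ΔIEC replicate 3 (-0.088) and with array weights (-0.0075). Pltp read 5.33, 5.32 and 5.69 in HDAC3ΔIEC and 4.97, 5.23 and 5.38 in HDAC3FF, with overlap. Its log2 fold change was 0.25 (95% interval -0.09 to 0.60, limma adjusted p = 0.616).

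Macrophages also express these 2 genes, so their markers are given beside them. Of 15 measured macrophage markers 1 was called, where 0.701% of all genes were called. It was C1qa, a complement subunit gene, which fell to 5.13 ± 0.23 in HDAC3ΔIEC, against 6.84 ± 0.34 in HDAC3FF (SD, n = 3 each; log2 fold change -1.71 ± 0.19, SE, limma adjusted p = 0.0204). It was not called without HDAC3ΔIEC replicate 2 (0.123), HDAC3ΔIEC replicate 3 (0.0736) or HDAC3FF replicate 1 (0.0633), as limma adjusted p-values. The list had 6 positive and 9 negative log2 fold changes, with Cd68, a lysosomal macrophage marker, at 0.51 ± 0.13 (SE, limma adjusted p = 0.174) and the chemokine receptor gene Cx3cr1 at 0.22 ± 0.10 (SE, limma adjusted p = 0.461), both with every HDAC3ΔIEC array higher. The partner genes of C1qa, C1qb and C1qc had log2 fold changes of 0.07 and -0.11, and Cd14, a lipopolysaccharide co-receptor, averaged 7.58 ± 0.29 in HDAC3ΔIEC and 7.98 ± 0.18 in HDAC3FF (SD, n = 3 each). The log2 of the summed signal of the list ran from 9.03 to 9.20 in HDAC3ΔIEC and from 9.33 to 9.46 in HDAC3FF. Only 4 of the 15 had a mean signal above the median of all genes, C1qa and Cd14 among them, so the sum follows few genes. The part of these markers in the values of Apoe and Pltp was not tested. In bulk samples, fewer cells of a type and less RNA per cell cannot be told apart.

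Fabp1 and Fabp2 encode the liver and intestinal forms of cytosolic fatty acid binding protein. Fabp1 read 7.55, 6.49 and 6.46 on the HDAC3ΔIEC arrays and 6.52, 4.96 and 5.23 on the HDAC3FF arrays. HDAC3FF replicate 1 reached the level of the lower HDAC3ΔIEC arrays, so the groups overlapped. The log2 difference was 1.26 ± 0.45 (SE; limma adjusted p = 0.338), or 2.40-fold, and with 1 array left out it ran from 0.90, without HDAC3ΔIEC replicate 1, to 1.74, without HDAC3FF replicate 1.

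Fabp2 read 12.82, 12.88 and 12.83 in HDAC3ΔIEC, against 12.85, 12.59 and 12.92 in HDAC3FF. The arrays lay close together near the upper end of the scale, with HDAC3FF replicate 2 lowest. The log2 fold change was 0.06 with a 95% interval from -0.19 to 0.30 (limma adjusted p = 0.925), and it turned to -0.042 without HDAC3FF replicate 2. Whether signals this bright still follow the amount of RNA was not tested. Fabp1 minus Fabp2 within each array averaged -6.01 ± 0.64 in HDAC3ΔIEC and -7.22 ± 0.76 in HDAC3FF (SD, n = 3 each), with overlap (exact permutation p = 0.3).

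Cd36 read 3.33, 3.32 and 3.35 on the HDAC3ΔIEC arrays and 3.36, 3.20 and 3.13 on the HDAC3FF arrays. It was the 1 gene of the 10 below the 25th percentile of all genes' mean signals, so its values say little about the receptor, and the log2 fold change was 0.11 (95% interval -0.10 to 0.31, limma adjusted p = 0.769). Endothelial cells and adipocytes express Cd36 strongly in mice. None of 12 measured endothelial and 7 adipocyte markers was called or had an unadjusted limma p under 0.05, and the log2 summed endothelial signal was 8.18 to 8.25 in HDAC3ΔIEC and 8.09 to 8.26 in HDAC3FF. For adipocyte markers it was 8.78 to 9.40 in HDAC3ΔIEC and 8.37 to 9.25 in HDAC3FF. Their brightest members were Lyve1 (0.21 ± 0.15) and Cldn5 (0.10 ± 0.09) for endothelium and the lipid droplet genes Cidec (0.67 ± 0.41) and Plin1 (0.01 ± 0.10) for adipocytes, as log2 fold changes ± SE. The endothelial list had 5 positive and 7 negative log2 fold changes (median -0.01), the adipocyte list 5 and 2 (median 0.03). With a mean signal of 8.28, against 5.50 for Plin1, Cidec weighed most in the adipocyte sum.

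**Figure D3:**
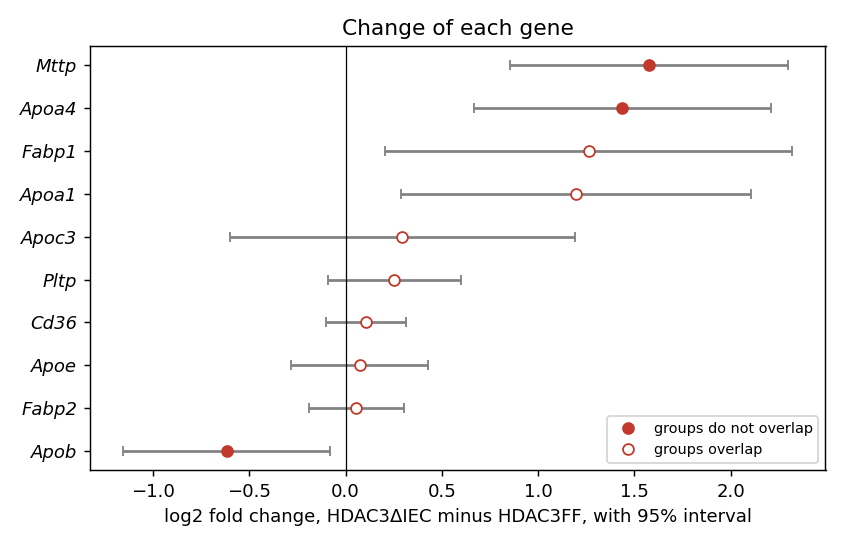
Log2 fold change of HDAC3ΔIEC minus HDAC3FF (horizontal axis) for each of the 10 genes, with limma's 95% interval; filled points mark genes whose groups did not overlap. The intervals of Mttp, Apoa4, Fabp1 and Apoa1 lie above 0 and that of Apob under 0, before adjustment over all genes.

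The individual arrays contributed unequally. HDAC3ΔIEC replicate 3 was the lowest of its group for 6 of the 10 genes and HDAC3ΔIEC replicate 1 the highest for 5. HDAC3FF replicate 3 was the highest control for 6 of the 10, and HDAC3FF replicate 2 the lowest for 5. Over the 3 genes whose log2 patterns lay closest to Mttp, Pearson's r over the 6 arrays was 0.995 for 1700012B09Rik, 0.993 for Vmn2r-ps54 and 0.991 for Gbp5. These 3 had signals between 3.20 and 3.82 on every array and mean differences between the groups of 0.14 to 0.20. The 6 arrays form 2 groups, and such an r does not separate the groups from the spread within them.

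Around the 10 genes, 98 of 110 other genes of intestinal lipid handling were measured in 6 lists, of which 1 rose, 1 fell and 96 were not called, where 0.701% of all genes were called. The median log2 fold change of the 98 was 0.03, against 0.01 for all genes. The gene that fell was Hnf4g, which encodes a nuclear receptor of the intestine related to HNF4α. It read 7.73, 7.05 and 7.06 on the HDAC3ΔIEC arrays and 8.97, 8.76 and 8.59 on the HDAC3FF arrays, with 0.86 between the nearest arrays of the groups. Its log2 fold change was -1.49 ± 0.20 (SE, limma adjusted p = 0.0334). It was not called without HDAC3ΔIEC replicate 2 (0.147), HDAC3ΔIEC replicate 3 (0.0921), HDAC3FF replicate 1 (0.140) or HDAC3FF replicate 2 (0.0991), as limma adjusted p-values.

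Of the 20 measured regulators, Hnf4g was the 1 called. Its relative Hnf4a read 10.67, 10.71 and 10.19 in HDAC3ΔIEC, against 10.42, 10.36 and 10.95 in HDAC3FF, with a log2 fold change of -0.06 ± 0.20 (SE). Nr1h3, the gene of the oxysterol receptor LXRα, had one of -0.49 ± 0.12 (limma adjusted p = 0.165), and Nr2f2, which encodes the orphan receptor COUP-TFII, one of -0.33 ± 0.12 (limma adjusted p = 0.351). The list's median was 0.02. The HNF4-type letters shown above stand before Apoa4, Apob and Fabp2, whose log2 fold changes were 1.44, -0.62 and 0.06. Binding to these letters was not measured, and a part of Hnf4g in the values of the 10 genes was not tested.

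The gene that rose was Angptl4, a secreted inhibitor of lipoprotein lipase, 1 of 19 measured receptors and remodelling factors. It read 5.76, 5.91 and 5.85 in HDAC3ΔIEC and 5.01, 4.89 and 4.93 in HDAC3FF, groups well apart, at a log2 difference of 0.89 ± 0.08 (SE; limma adjusted p = 0.0109). It was not called without HDAC3ΔIEC replicate 2 (0.0874), HDAC3ΔIEC replicate 3 (0.0524) or HDAC3FF replicate 1 (0.0633), as limma adjusted p-values. The other 18 were not called. Among them Sorl1, a sorting receptor of endosomes, differed by -0.77 ± 0.17 on the log2 scale (SE; limma adjusted p = 0.122), and Lrpap1, a chaperone of lipoprotein receptors, one of -0.57 ± 0.13 (limma adjusted p = 0.129).

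None of the 20 measured assembly and secretion partners was called, though 15 had positive log2 fold changes (median 0.11). In 6 of them all HDAC3ΔIEC arrays were above all controls, against 8.45% of all genes, and in 1, Dgat1, all were below, against 7.70%. At an unadjusted limma p under 0.05 there were 6, all higher, against 5.38% of all genes. Creb3l3, which encodes a membrane-bound transcription factor of lipid metabolism known to drive Apoa4 in mice, read 8.31, 8.54 and 8.32 in HDAC3ΔIEC and 6.82, 6.37 and 7.66 in HDAC3FF. The HDAC3ΔIEC arrays were tightly grouped above more scattered controls, with a log2 difference of 1.44 ± 0.30 (SE; limma adjusted p = 0.0997). Plin2, a lipid droplet coat protein, averaged 8.90 ± 0.12 in HDAC3ΔIEC and 8.46 ± 0.12 in HDAC3FF (SD, n = 3 each; limma adjusted p = 0.127). P4hb, the protein disulphide isomerase subunit that pairs with MTTP, had a log2 fold change of 0.11 ± 0.08 (SE), and Sar1b, the GTPase of chylomicron export, one of 0.13 ± 0.10. P4hb, Sar1b and Hnf4a were singled out after their values were seen.

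In the list of fatty acid uptake, binding and activation, 20 of 22 genes were measured and none was called, with a median of 0.03. Slc27a2, a fatty acid transporter and very long chain acyl-CoA synthetase, read 7.63, 7.53 and 7.85 in HDAC3ΔIEC, against 8.38, 8.49 and 8.85 in HDAC3FF. The groups were apart, lower in HDAC3ΔIEC, and the log2 fold change of -0.90 ± 0.15 (SE) had a limma adjusted p = 0.0531. Mfsd2a, a lysophospholipid transporter, averaged 5.25 ± 0.16 in HDAC3ΔIEC and 4.67 ± 0.17 in HDAC3FF (SD, n = 3 each; limma adjusted p = 0.111). Of the 20, 11 had positive and 9 negative log2 fold changes. At an unadjusted p under 0.05, 3 were higher and 3 lower, against 5.38% and 5.84% of all genes.

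Of 11 measured other apolipoproteins none was called (median 0.02) and 0 had an unadjusted p under 0.05 with limma. The smallest p-values were those of Saa1, an acute-phase apolipoprotein (-0.50 ± 0.22, SE, limma adjusted p = 0.458), and Apoc4, in the cluster of Apoe (0.13 ± 0.07, limma adjusted p = 0.616). Of 8 measured genes of sterol absorption and esterification none was called either (median 0.09), with 2 higher and 2 lower at an unadjusted p under 0.05, against 5.38% and 5.84% of all genes. Gramd1b, a sterol carrier that moves cholesterol of the plasma membrane to the endoplasmic reticulum, read 6.81, 6.70 and 6.25 in HDAC3ΔIEC and 7.91, 7.76 and 8.65 in HDAC3FF, with no overlap (log2 fold change -1.52 ± 0.25, SE, limma adjusted p = 0.0564). Abcg8, which forms a sterol efflux pump with ABCG5, averaged 6.16 ± 0.48 in HDAC3ΔIEC and 5.28 ± 0.17 in HDAC3FF (SD, n = 3 each; limma adjusted p = 0.177).

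**Figure D4:**
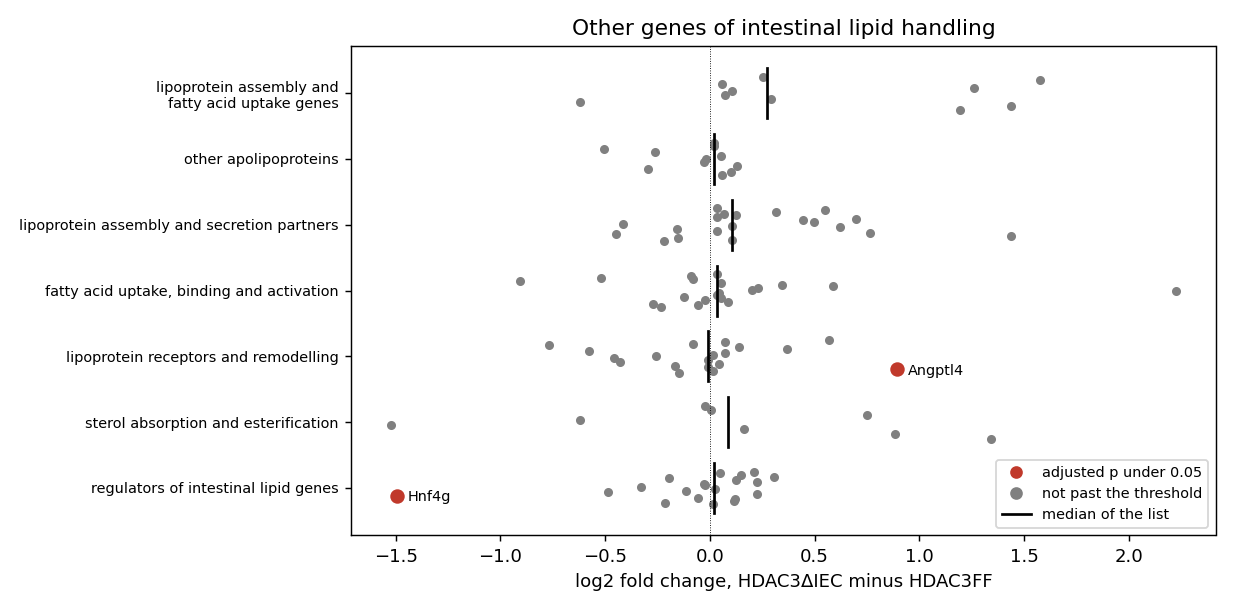
Log2 fold change of HDAC3ΔIEC minus HDAC3FF (horizontal axis) of the 10 genes (top row) and of 6 lists of other lipid-handling genes, 1 point per gene; red points are past a limma adjusted p of 0.05 and black lines are list medians. The red points are Angptl4 (0.89) and Hnf4g (-1.49), and the list medians lie between -0.01 and 0.27.

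Chylomicron genes are typical of the small intestine, so 20 markers of small intestinal enterocytes were read beside them. None was called, and the median log2 fold change was 0.08. At an unadjusted p under 0.05, 4 were higher and 4 lower, against 5.38% and 5.84% of all genes. Fabp6, the ileal bile acid binding protein gene, read 12.51, 12.35 and 11.44 in HDAC3ΔIEC, against 10.35, 10.58 and 8.70 in HDAC3FF. It differed by 2.23 ± 0.51 on the log2 scale (SE; limma adjusted p = 0.125), whereas Mep1a, a brush border metalloprotease, had one of -0.97 ± 0.19 (SE, limma adjusted p = 0.0818). The log2 of the summed signal of this list ran from 13.28 to 14.13 in HDAC3ΔIEC and from 13.44 to 13.91 in HDAC3FF. Its mean log2 signal was 7.97, 7.68 and 7.28 on the HDAC3ΔIEC arrays and 7.53, 7.43 and 7.65 on the HDAC3FF arrays. HDAC3ΔIEC replicate 3 was lowest, as it was within its group for Mttp, Apob, Apoa1, Apoa4, Apoc3 and Fabp1. It was also lowest in its group for the large intestine markers (10.29, 10.33 and 10.02) and the epithelial markers (11.76, 11.85 and 11.52). The same replicate was lowest in its group for each of the 6 lists of other lipid-handling genes and for the neighbours of Apoa1 and Apoe (7.14, 7.24 and 6.92). For the macrophage, endothelial, adipocyte, fibroblast and muscle, and T and B cell markers it was not. The part of these markers in the results on the 10 genes was not tested.

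Markers of other cells were in the lower part of the scale and gave no call, with 1 fibroblast and muscle gene higher and 1 T and B cell gene lower at an unadjusted p under 0.05 (5.38% and 5.84% of all genes). Among 12 measured fibroblast and muscle markers, with 8 positive and 4 negative log2 fold changes (median 0.04), the intermediate filament gene Vim averaged 6.20 ± 0.40 in HDAC3ΔIEC and 5.71 ± 0.05 in HDAC3FF (SD, n = 3 each; limma adjusted p = 0.389). The 12 measured T and B cell markers had 6 positive and 6 negative log2 fold changes (median -0.01). Their brightest members, the T cell receptor chain gene Cd3e and the B cell receptor gene Cd79b, differed by -0.22 ± 0.09 (SE, limma adjusted p = 0.402) and -0.16 ± 0.16 on the log2 scale.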

How the data were processed

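RNA of epithelial cells of germ-free mice was extracted with Trizol and labelled with biotin, per the labels' protocols, and each of 6 biological replicates had its own array; whether a replicate is 1 mouse or a pool is not stated. Their range shows that the authors deposited log2 signals, 1 per probe set. The submitters' processing notes name Affymetrix Power Tools; its version, the background correction and the normalization were not given in these sources. Values were used as the authors deposited them. Of 24939 probe sets, 21105 name 1 gene, 1254 several and 2580 none; 21022 were matched by Entrez number to RefSeq (GRCm38.p6). Each of 19533 genes was represented by its probe set of highest mean. HDAC3ΔIEC minus HDAC3FF was tested with limma 3.58.1 (lmFit, eBayes, two-sided, no covariate) in R 4.3.3, with Benjamini-Hochberg adjustment over all genes, and checked on simulated data. Figures used matplotlib 3.10.9 in Python 3.11.15.

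The 10 genes and the lists were chosen with earlier results of these data known. The lists' named genes are those called (up to 4 a list), the 2 uncalled with the smallest p, and the 2 brightest of each marker list. Epcam, C1qb, C1qc, Cd68, Cx3cr1, Aqp8, Slc26a2, Slc26a3, Hoxd10, P4hb, Sar1b, Hnf4a, Apoa5, Sik3 and the genes of the additional observations were chosen after their values were seen, and the motif letters after a first search. Some listed genes are not analysed here; Apoc2 and Acsl3 are only on probe sets naming several genes. Other settings tried were leaving out each array, array weights, quantile normalization, median centring, an intensity trend, a replicate block, dim filters (25th percentile, median), averaging a gene's probe sets, adjusting over every probe set and an adjusted p under 0.10.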

Additional observations from a re-analysis of the deposited data

How the results depend on the processing

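Over 15 alternatives the 10 genes gave 147 values, of which 137 kept sign and side of the threshold, 6 came to pass it (Mttp and Apoa4, named above) and 4 turned sign without a call: Apoc3 without HDAC3ΔIEC replicate 1 (-0.025), Apoe without HDAC3ΔIEC replicate 3 (-0.088) and with array weights (-0.0075), and Fabp2 without HDAC3FF replicate 2 (-0.042). With 1 array left out Apoc3 ran from -0.025 to 0.68, Apoe from -0.088 to 0.22 and Fabp2 from -0.042 to 0.12. The count of the 10 genes called was 1 with an intensity trend, with genes above the median or at an adjusted p under 0.10, 2 with array weights, and 0 to 1 with 1 array left out. Their median log2 fold change was 0.74 for the 8 genes above the median, a filter that removes Pltp and Cd36 and that Mttp passed through its HDAC3ΔIEC signals. It ran from 0.16 to 0.51 with 1 array left out. Of the 98 lipid-handling genes, 4 were called with an intensity trend, 6 with array weights, 5 at an adjusted p under 0.10, and 0 to 9 with 1 array left out, the 9 without HDAC3FF replicate 3. The dim filters kept 90 (25th percentile) and 77 (median) of the 98, and 4 were called with either. The 1 higher call above the median was Angptl4. It passed that filter through its HDAC3ΔIEC signals, since its HDAC3FF mean of 4.94 lay below the lowest array median of 5.30. Over all genes 137 were called, 357 with array weights, 321 at an adjusted p under 0.10, and 13 (without HDAC3FF replicate 1) to 430 (without HDAC3FF replicate 3). Deviations of arrays with the same replicate number correlated at -0.02, -0.07 and -0.20, so the numbers were not taken to pair the arrays. With the replicate block 12 genes were called over all genes, none of the 10 (0) and 0 of the 98, where Hnf4g had a limma adjusted p = 0.0740 and Angptl4 0.0866, and C1qa had 0.103. The causes were not tested. Signals below background are not marked in the deposited values, which limits Cd36 most.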

Other observations

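Among the genes picked after their values were seen were 3 of triglyceride synthesis. Dgat2, an acyltransferase of the last step of triglyceride synthesis, read 8.70, 9.16 and 8.93 in HDAC3ΔIEC and 7.93, 7.97 and 8.60 in HDAC3FF, and all HDAC3ΔIEC arrays were higher (log2 fold change 0.76 ± 0.20, SE, limma adjusted p = 0.182). Dgat1, the other enzyme of that step, read 8.55, 8.50 and 8.22 in HDAC3ΔIEC and 8.67, 8.62 and 9.31 in HDAC3FF, and all HDAC3ΔIEC arrays were lower (-0.45 ± 0.20, SE, limma adjusted p = 0.461). Mogat2, the monoacylglycerol acyltransferase of fat absorption, averaged 5.44 ± 0.31 in HDAC3ΔIEC and 4.82 ± 0.05 in HDAC3FF (SD, n = 3 each; limma adjusted p = 0.148). None of the 3 was called.

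The others were brush border and bile acid genes of the small intestine. Slc10a2, the apical bile acid transporter, read 9.74, 8.92 and 8.75 in HDAC3ΔIEC and 10.85, 10.26 and 11.19 in HDAC3FF, lower on every HDAC3ΔIEC array (log2 fold change -1.63 ± 0.31, SE, limma adjusted p = 0.0807), while the binding protein gene Fabp6 was higher on every HDAC3ΔIEC array. Sis, the sucrase-isomaltase gene of small intestinal brush border, read 8.48, 6.93 and 6.46 in HDAC3ΔIEC and 6.28, 5.44 and 5.34 in HDAC3FF, higher on every HDAC3ΔIEC array (1.60 ± 0.51, SE, limma adjusted p = 0.271), whereas Alpi, the intestinal alkaline phosphatase, was lower on every one (-1.01 ± 0.40, SE, limma adjusted p = 0.410). These genes were not called, and the differences between them were not tested.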
